A study of Homo sapiens with 4 samples.

Results

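The genes of the cytosolic ribosomal proteins were followed across 4 RNA-seq libraries of A549, an established human lung adenocarcinoma cell line. They are the rows whose symbol is RPL or RPS with its number and an optional ending, together with RPLP0, RPLP1, RPLP2 and RPSA. Pseudogenes, RPS6 kinases, read-through rows and the Y-linked copies were left out. The rule found 78 genes among the 26255 of the table, 47 of the large and 31 of the small subunit. The libraries were 1 acinar-type and 1 solid-type tumor, both cut by laser microdissection from A549 xenografts in mice, and 1 mix culture and 1 single culture, from which GFP-labelled A549 cells were sorted out of 3D colonies. The mix culture was read as the colonies grown with cancer-associated fibroblasts (CAFs) and the single culture as those grown without them, since the labels describe no other pair of cultures. The sources used here do not say whether both tumor regions came from 1 mouse, whether colonies or animals were pooled, or whether mouse reads were removed.

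Each ribosome is built from a small subunit, which reads the mRNA, and a large subunit, which joins amino acids and passes the growing chain through an exit tunnel. Most of its proteins are present once per ribosome, are needed for growth and are encoded by single active genes with many processed copies elsewhere in the genome. Their mRNAs usually begin with a run of pyrimidines, the 5′ terminal oligopyrimidine (TOP) tract, through which mTORC1 and LARP1 control their translation and stability.

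The values are scaled counts, the deposited signal divided by the same constant, 8.94, in all libraries, so that a library sums to 1000000 on average. The estimated depth was 6630000 fragments in the acinar tumor, 7270000 in the solid tumor, 12180000 in the mix culture and 10970000 in the single culture. A log2 ratio is taken after adding 1 scaled count to each value, and a gene is measured where a compared library reaches 1. The limits used on that scale were at least 25% higher or 20% lower, which is the same ratio turned round, and 2-fold. Each group has 1 library, so no difference has a replicate check and none carries a p-value. Folds of single genes are plain ratios, with 95% exact conditional binomial (Clopper-Pearson) intervals on whole fragments that cover counting error only.

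The starts of the genes that later stand at the ends of the comparisons are shown with their pyrimidine tracts. Each line gives 30 bases around the start that RefSeq annotates on GRCh38.p14, 10 before it and 20 from it on, read 5′ to 3′ on the gene's strand. Capitals mark a tract, defined as a C followed by at least 5 bases that are each C or T, with its first base between 5 before and 10 after the start. RPL39, RPS21 and RPL12 were among the 4 members with the largest tumor over culture ratios, RPL4, RPL7A and RPL3 had small ones, RPLP1 is a stalk gene, RPS26 went the opposite way, and RPS27 and RPS28 were almost without counts.
RPL39 (chrX:119791611-119791640, minus strand): ccgccagCTTCCCTCCTCTTCCTTTCTCCg
RPS21 (chr20:62387093-62387122, plus strand): ctagctgCTTCCTTTCTCTCTCgcgcgcgg
RPL12 (chr9:127451387-127451416, minus strand): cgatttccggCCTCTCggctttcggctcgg
RPL4 (chr15:66504836-66504865, minus strand): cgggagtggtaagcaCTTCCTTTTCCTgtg
RPL7A (chr9:133348208-133348237, plus strand): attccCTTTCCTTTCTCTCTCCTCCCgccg
RPL3 (chr22:39319604-39319633, minus strand): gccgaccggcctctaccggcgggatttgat
RPLP1 (chr15:69452808-69452837, plus strand): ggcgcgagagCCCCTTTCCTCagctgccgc
RPS26 (chr12:56041908-56041937, plus strand): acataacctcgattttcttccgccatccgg
RPS27 (chr1:153990752-153990781, plus strand): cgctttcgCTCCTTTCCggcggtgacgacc
RPS28 (chr19:8321486-8321515, plus strand): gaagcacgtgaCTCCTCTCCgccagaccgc

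The promoter table held 63 of the 78 members, and 50 of these, 79.4%, had such a tract at their first listed start. Such a tract was found in 14.7% of all 27305 genes listed there, and in 15.3% of the 10668 of them that reach 1 scaled count in a library. With the tract required to begin at the annotated start itself, the shares were 65.1% of the members and 3.00% of all genes. Of 68 matched mitochondrial ribosomal protein genes, whose products build the separate ribosome of that organelle, 6 had a tract. The search read the gene's own strand, and a gene without a match may begin its transcripts at another base than the annotated one, as in the windows of RPL3 and RPS26, where no tract by this definition was found. Members with and without a tract had close medians. The median tumor over culture log2 difference was 1.0 over the 47 measured members with a tract and 0.86 over the 13 without, and the acinar over solid medians were -0.38 and -0.39.

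Levels differed more between the tumors and the cultures than within either pair. The members took 4.62% of the summed signal in the acinar tumor, 6.16% in the solid tumor, 3.06% in the mix culture and 2.75% in the single culture. Of the 100 highest rows of each library, 16 were members in the acinar tumor, 27 in the solid tumor, 9 in the mix culture and 8 in the single culture. Large and small subunit genes kept nearly the same balance throughout. The summed large subunit genes stood at 1.34 times the small subunit genes in the acinar tumor, 1.38 times in the solid tumor, 1.40 times in the mix culture and 1.40 times in the single culture.

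Most members shared a single order of the libraries. In 64 of the 74 measured members the solid tumor was highest, followed by the acinar tumor, the mix culture and the single culture, a count made after the values were seen. That order was found in 7.62% of the 14561 genes that reach 1 scaled count in a library. The exceptions included RPL9, RPL10, RPL17, RPL23A, RPL36A, RPL39, RPS3A, RPS7 and RPS26. RPS6, the small subunit protein phosphorylated by S6 kinase, is typical, with 2084 scaled counts in the acinar tumor, 2638 in the solid tumor, 1351 in the mix culture and 1170 in the single culture.

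**Figure D1:**
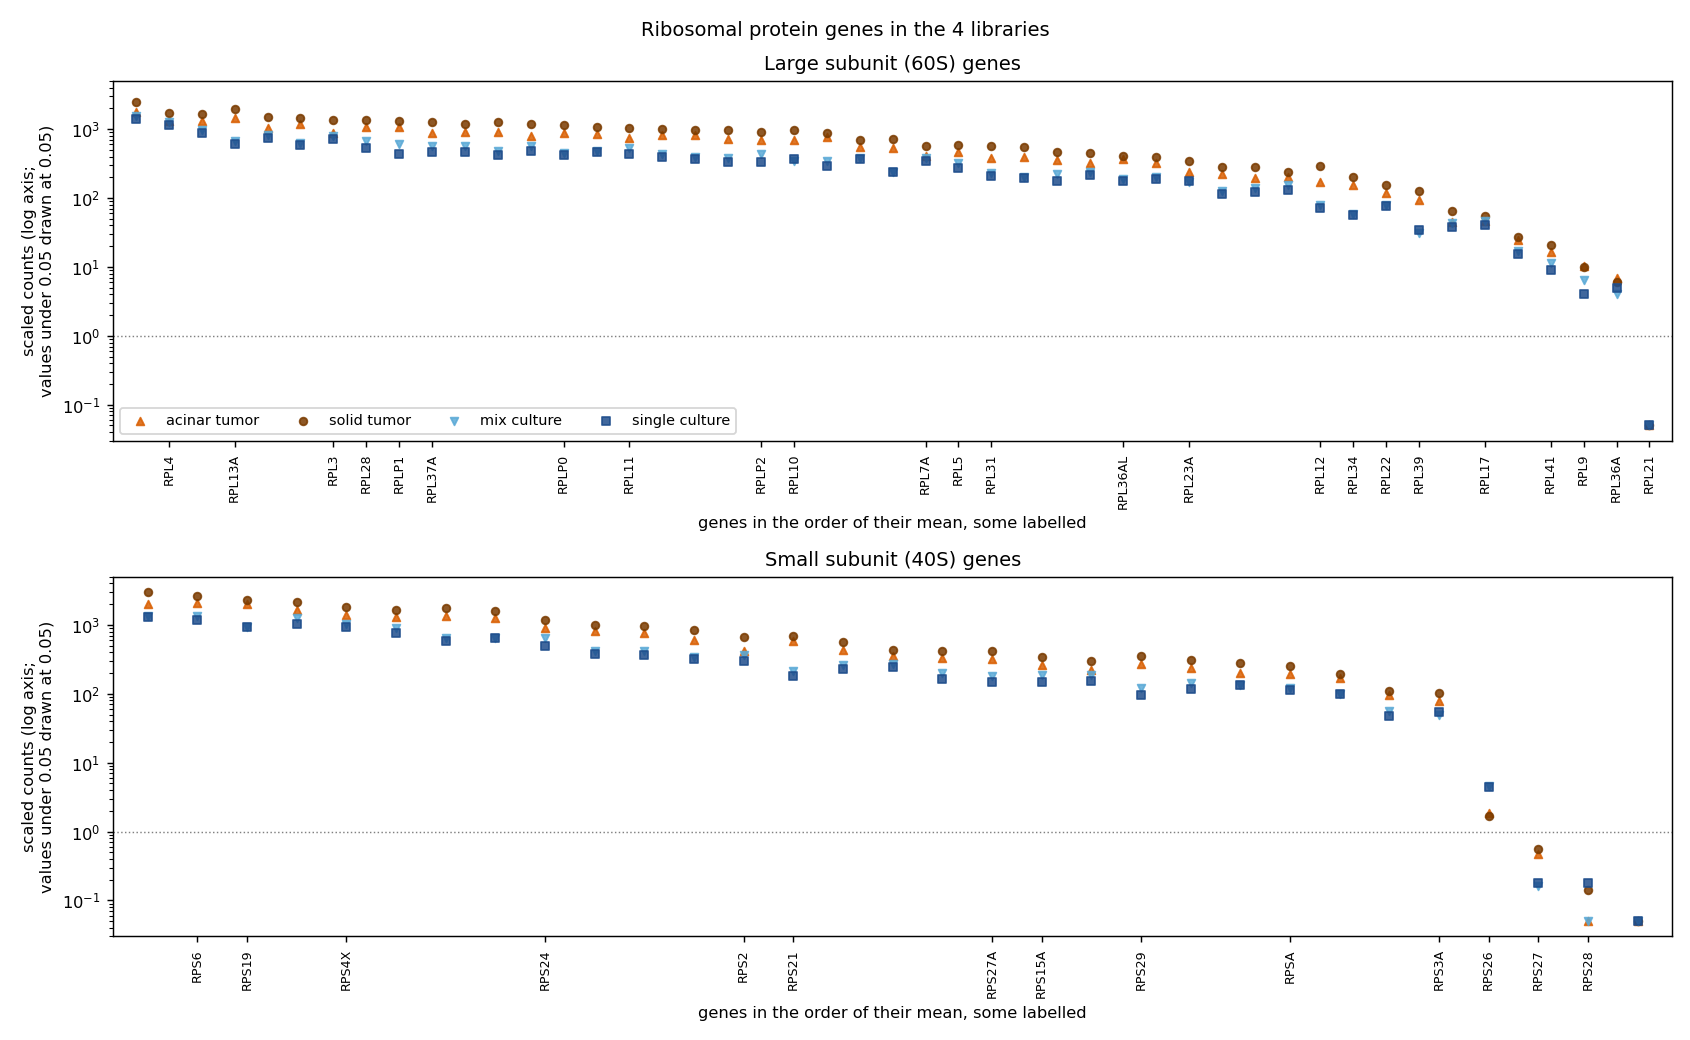
Scaled counts of all 78 genes in the acinar tumor, solid tumor, mix culture and single culture on a log axis, large subunit above and small subunit below, each ordered by its mean over the libraries, with some of the genes described in the text labelled. The solid tumor is the highest point for most genes and the cultures lie lowest, while RPL21, RPS27 and RPS28 lie below the dotted filter line at 1 scaled count.

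The filter was passed by 74 members in each comparison, and 4 stayed below it, RPL21, RPS27 and RPS28 among them. RPL21 reached at most 0.0105 scaled counts. RPS27, a zinc-binding small subunit protein, had 3 fragments in the acinar tumor, 4 in the solid tumor, 2 in the mix culture and 2 in the single culture. RPS28 had 0 fragments in the acinar tumor, 1 in the solid tumor, 0 in the mix culture and 2 in the single culture. These proteins are core parts of the small and large subunit, so the values of these rows were set beside the sequence that they share with other genes.

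For each member the coding sequence of its GENCODE 29 transcript was cut into overlapping 50-base windows, and the windows also present in a transcript of another gene, mostly processed pseudogenes, were counted. RPL21, RPS27, RPS28 and RPS26 shared 100% of their windows. Toward the other end stood RPS19, the gene first tied to Diamond-Blackfan anaemia, at 2.07%, and RPL37A at 4.41%. Per kilobase of coding length the mean over libraries was 3520 scaled counts for RPS19 and 2885 for RPL37A, against 9.05 for RPS26 and 1.35 for RPS27.

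Over classes of shared sequence the level per kilobase ran downward. The median was 2269 scaled counts per kilobase in the 18 members sharing under 20% of their windows, 1071 in the 26 at 20 to 60%, 541 in the 19 at 60 to 90% and 63.8 in the 15 at 90% or more. Across the 78 members the rank correlation of the shared percentage with the level was -0.79 (Spearman), and it was -0.79 with windows of 36 bases and -0.78 with 75. These points share their libraries and the authors' read assignment, and the sources used here do not give how reads with several matching places were counted. The relation was not strict. RPL39, which lines the exit tunnel, shared 100% and still had 462 scaled counts per kilobase, and RPL36A, with 71.4% shared, had only 12.9. The coding length of RPL39 is only 153 nucleotides. Untranslated sequence can add fragments but enters neither the windows nor the length, and its part was not tested.

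**Figure D2:**
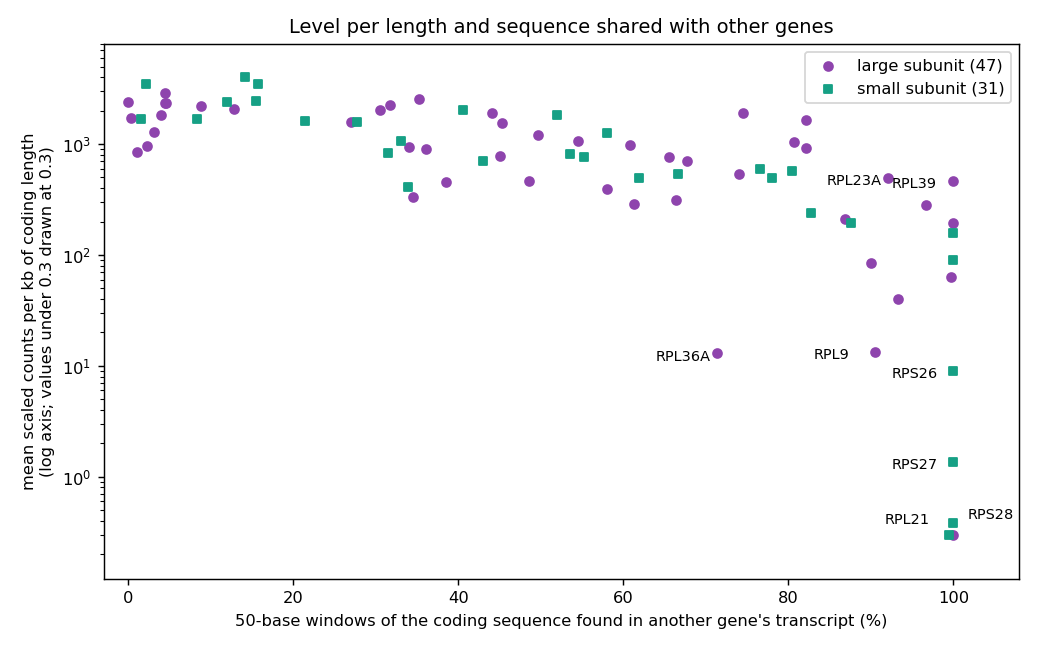
Mean scaled counts per kilobase of coding length, on a log axis, against the percentage of 50-base coding windows found in a transcript of another gene, 1 point per member. The 18 members under 20% all lie at 846 or more scaled counts per kilobase, and the lowest points lie at the right edge, RPL21, RPS27 and RPS28 among them at 100%.

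For the lowest of these rows the ratios rest on few fragments. Assignment of reads is also uncertain for 3 members through read-through rows that contain their exons. The RPL36A-HNRNPH2 row held 2.31 scaled counts in the acinar tumor and 0 elsewhere. RPL17-C18orf32 held 0 in the acinar tumor, 5.42 in the solid tumor, 0.00545 in the mix culture and 0.00775 in the single culture. RPS10-NUDT3 held 0 in the acinar tumor, 4.89 in the solid tumor and 0 in both cultures.

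Acinar against solid tumor compares gland-forming with sheet-like growth of the same line. Members were lower in the acinar tumor by a similar amount almost throughout. Of 74 members, 71 had a log2 ratio below 0, against 49.2% of the 13979 genes measured, and 53 were at least 20% lower, against 18.3% of all genes. None was 25% higher, against 15.9% of all genes, and none reached 2-fold lower, against 2.55%. The member median was -0.38 and the all-gene median 0.01. Both subunits sat at the same place, with medians of -0.39 for 46 large and -0.38 for 28 small subunit genes.

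RPL12, a protein at the base of the stalk, had the lowest ratio. It stood at 171.9 scaled counts in the acinar tumor, against 294.0 in the solid tumor, a fold of 0.585 (interval 0.543 to 0.629). RPS2, at the mRNA entry side of the small subunit, stood at 416.0 in the acinar tumor, against 661.2 in the solid tumor, a fold of 0.629 (interval 0.600 to 0.660). RPL31 and RPL3 followed, each with a log2 ratio of -0.62. RPL3 lies close to the site where peptide bonds form.

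At the upper end were RPL36A at 0.19, RPS26 at 0.10 and RPL9 at 0.06, and RPL36AL also stood high in the order, at -0.13. The first 3 of these are low rows, with at most 10.4 scaled counts in a tumor library. RPS26 had 12 fragments in each tumor, and its fold of 1.11 had an interval of 0.456 to 2.70. RPL9 had 67 fragments in the acinar tumor and 71 in the solid tumor, a fold of 1.05 (interval 0.738 to 1.48). RPL36A had no whole fragment number in the acinar tumor, so it has no interval. RPL36AL, the autosomal copy of RPL36A, was well counted, with 368.5 in the acinar tumor and 403.0 in the solid tumor, a fold of 0.914 (interval 0.866 to 0.966).

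Counting error alone covered few of these differences. Intervals could be computed for 68 members. They lay wholly below 1 for 64, against 16.6% of the 12360 genes with such an interval, and the 4 that held 1 included those of RPL9, RPL41 and RPS26. These shares rest on unlike depth, since an interval narrows with more fragments. The member median was 422 scaled counts in the acinar tumor and 581 in the solid tumor. Over all genes at 1 or more it was 28.8 and 27.7.

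The stalk proteins, which recruit elongation factors to the large subunit, stood close together. RPLP0 had 893.8 scaled counts in the acinar tumor and 1151 in the solid tumor, a fold of 0.777 (interval 0.751 to 0.803). RPLP1 had a log2 ratio of -0.29 and RPLP2 of -0.37. RPL5 and RPL11, which with a small ribosomal RNA form the particle that can bind MDM2, had log2 ratios of -0.33 and -0.48. For RPL11 the acinar tumor had 745.5 scaled counts and the solid tumor 1041.

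The log2 ratios of other key members lay in a narrow band. RPSA, also known as a laminin receptor, was at -0.36, RPS6 at -0.34, RPS27A, which is made as a fusion with ubiquitin, at -0.42 and RPL13A, which also acts in translational silencing, at -0.43. RPL10, among the last proteins to join the large subunit, was at -0.47, RPS4X at -0.40, RPL22 at -0.39, RPL39 at -0.43 and RPL41, the shortest ribosomal protein, at -0.32. RPS19 was nearer to 0, at -0.19, with 1992 scaled counts in the acinar tumor and 2265 in the solid tumor.

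Among genes at a mean of 100 scaled counts or more, the SD of the log2 ratio was 0.12 over 64 members and 0.36 over 2191 other genes. It describes the spread between genes, not between samples. All 64 of those members were below 0, as were 45% of the other genes.

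**Figure D3:**
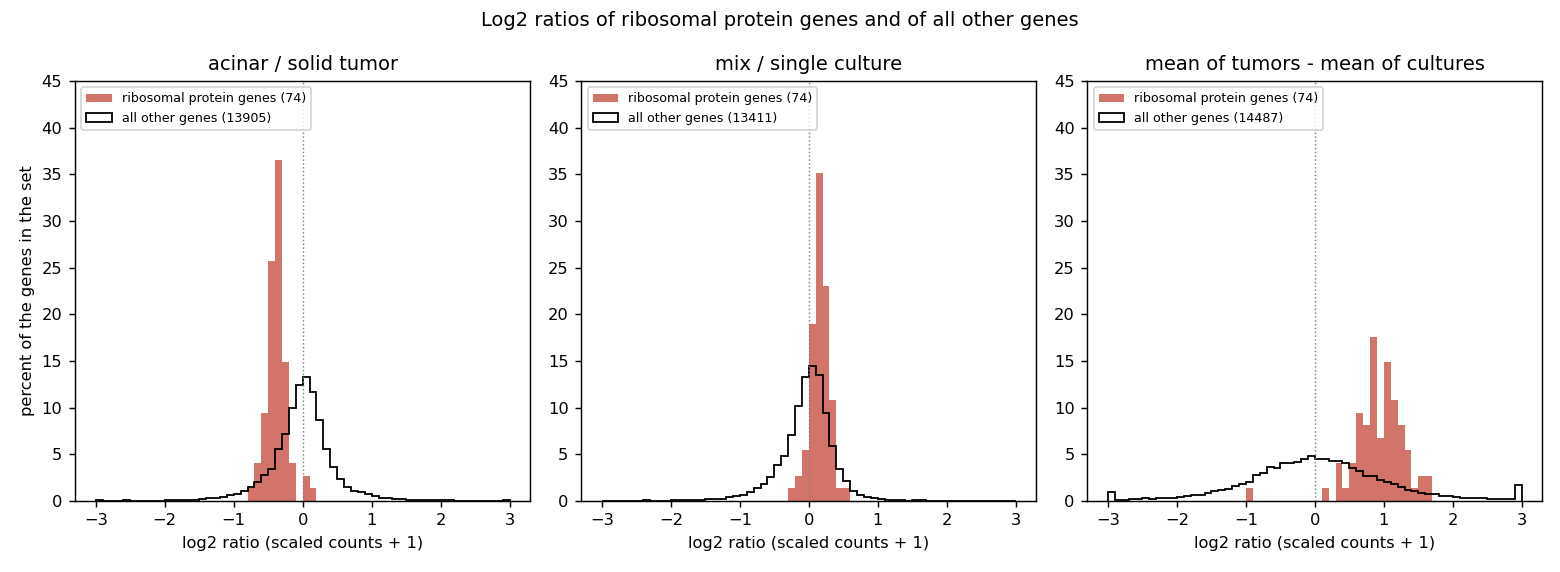
Distribution of log2 ratios over the 74 measured members (filled) and over all other genes (line) for acinar over solid tumor, mix over single culture, and the mean of tumors minus the mean of cultures; the outermost bins also hold values beyond the axis. The members form a narrow peak left of 0 in the first panel, with median -0.38, a peak just right of 0 in the second, with median 0.15, and a wider one at 0.94 in the third.

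Mix against single culture asks what growth with CAFs does to the sorted A549 cells. The members were slightly higher in the mix culture. Log2 ratios were above 0 for 67 of 74, against 52% of the 13485 genes measured, with a median of 0.15 beside an all-gene median of 0.01. At least 25% higher were 8 members, near the 12.9% of all genes, and none was 20% lower, against 16.4% of all genes. None reached 2-fold higher, against 0.682% of all genes.

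The 8 were RPL9, RPLP1, RPS24, RPLP2, RPS15A, RPS29, RPL28 and RPL41. RPLP1 had 610.5 scaled counts in the mix culture and 439.2 in the single culture, a fold of 1.39 (interval 1.34 to 1.44). RPLP2, which pairs with RPLP1 on the stalk, had 435.9 in the mix culture and 338.2 in the single culture, a fold of 1.29 (interval 1.24 to 1.34). RPLP0, the protein that anchors both, had 443.7 in the mix culture and 425.2 in the single culture, a fold of only 1.04. The stalk genes thus spanned log2 ratios of 0.06 to 0.47 here, and of -0.37 to -0.29 between the tumors.

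RPS24 stood at 639.8 scaled counts in the mix culture and 487.7 in the single culture, a fold of 1.31 (interval 1.27 to 1.36). RPL9 had the highest log2 ratio, 0.57, but on 80 fragments in the mix culture and 45 in the single culture. RPS15A had a log2 ratio of 0.36.

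The lowest were RPL36A at -0.21, RPL39 at -0.14, RPS3A at -0.12, RPL10 at -0.09 and RPL23A at -0.08, and of these the 4 with whole fragments had intervals that held 1. RPL39 had 31.0 scaled counts in the mix culture and 34.3 in the single culture, a fold of 0.904 (interval 0.783 to 1.04). Of the 68 intervals, 51 lay wholly above 1, against 23.4% of those of 11801 genes, and none wholly below, against 20.4%. Here too the depth was unlike, with a member median of 266 scaled counts in the mix culture and 241 in the single culture. Over all genes at 1 or more it was 30.5 and 29.3.

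Other key members lay on both sides of the median of 0.15. Log2 ratios were 0.23 for RPL5, 0.25 for RPL11, 0.21 for RPS6, 0.12 for RPSA, 0.31 for RPS27A, 0.14 for RPL13A, 0.13 for RPS4X, 0.13 for RPL3 and 0.33 for RPL41. Nearer to 0 were RPL22 at 0.05, RPL36AL at 0.10 and RPS19 at 0.01. No library is shared between the tumor pair and the culture pair, and 65 of 74 members were lower in the acinar tumor and also higher in the mix culture, against 22.7% of the 12903 genes measured in both pairs.

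Tumors against cultures gave the largest differences. Because tumor cells were microdissected and cultured cells were sorted, growth in a mouse and the way of taking cells cannot be told apart. Of 74 members, 72 had both tumors above both cultures, against 39.8% of the 14561 genes measured. At least 25% higher with that separation were the same number, 72, against 34.6% of all genes, and 34 were at or past 2-fold higher, against 15%. One member was at least 20% lower, against 33% of all genes. The median log2 difference was 0.94 for members and 0.02 for all genes.

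RPL39 stood highest. Its values were 92.7 scaled counts in the acinar tumor and 124.9 in the solid tumor, against 31.0 in the mix culture and 34.3 in the single culture, a fold of 3.33 between the means. The smallest of its 4 tumor over culture ratios was 2.70 and the largest 4.03. RPS21 had 583.3 in the acinar tumor and 685.1 in the solid tumor, against 211.7 in the mix culture and 183.8 in the single culture, a fold of 3.21. RPL34 followed at 3.10-fold, RPL12 at 3.11-fold and RPS29, a short zinc-binding protein, at 2.82-fold. On the log2 scale that set their order these were 1.60, 1.58 and 1.48, beside 1.69 for RPL39 and 1.68 for RPS21.

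At the low end stood long large subunit genes and rows with much shared sequence. RPL4, which reaches into the exit tunnel, had 1312 scaled counts in the acinar tumor and 1734 in the solid tumor, against 1273 in the mix culture and 1140 in the single culture. Its acinar and mix values lay close together, and its fold was 1.26. RPL7A had a log2 difference of 0.39, RPL7 of 0.39 and RPL17 of 0.20. RPL17 was the only measured member in which tumors and cultures overlapped, with 45.7 in the acinar tumor, 54.2 in the solid tumor, 45.9 in the mix culture and 40.9 in the single culture.

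RPS26, a small subunit protein that touches the mRNA near its exit, was the member with lower tumors. It had 12 fragments in the acinar tumor and 12 in the solid tumor, against 56 in the mix culture and 50 in the single culture, a log2 difference of -0.98. All of its windows were shared, with transcripts of 26 other genes, so which copy these fragments came from was not tested.

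The stalk genes lay close together in this comparison, with log2 differences of 1.22 for RPLP0, 1.22 for RPLP1 and 1.06 for RPLP2. RPL13A was at 1.39, RPS19 at 1.19, RPL10 at 1.18, RPS27A at 1.14 and RPL36AL at 1.05. RPSA was at 0.91, RPS6 at 0.90, RPL11 at 0.86, RPL41 at 0.82, RPL5 at 0.81, RPL22 at 0.79, RPS4X at 0.69, RPL3 at 0.54 and RPL36A at 0.45.

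Coding length moved with this comparison in the whole table. Over 12871 genes with a coding length the Spearman correlation between length and the log2 difference was -0.23, and over the 74 members it was -0.37. Among the other genes the median log2 difference was 0.51 up to 300 nucleotides, 0.35 at 300 to 450, 0.25 at 450 to 600, 0.05 at 600 to 1300 and -0.18 beyond. The members' medians in the first 4 classes were 1.24, 1.04, 0.88 and 0.81. So members stood above the median of other genes of like length in 72 of 74 cases, but only 3 passed the 90th percentile of their class. Mitochondrial ribosomal protein genes, also short, with a median coding length of 582 nucleotides beside 454.5 for the members, had a median of 0.04. Their difference also fell with length, with a Spearman correlation of -0.53. In the first 4 classes their medians were 0.46, 0.30, 0.13 and -0.18, over 3, 20, 18 and 35 genes. The part that length has in the members' difference was not tested.

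**Figure D4:**
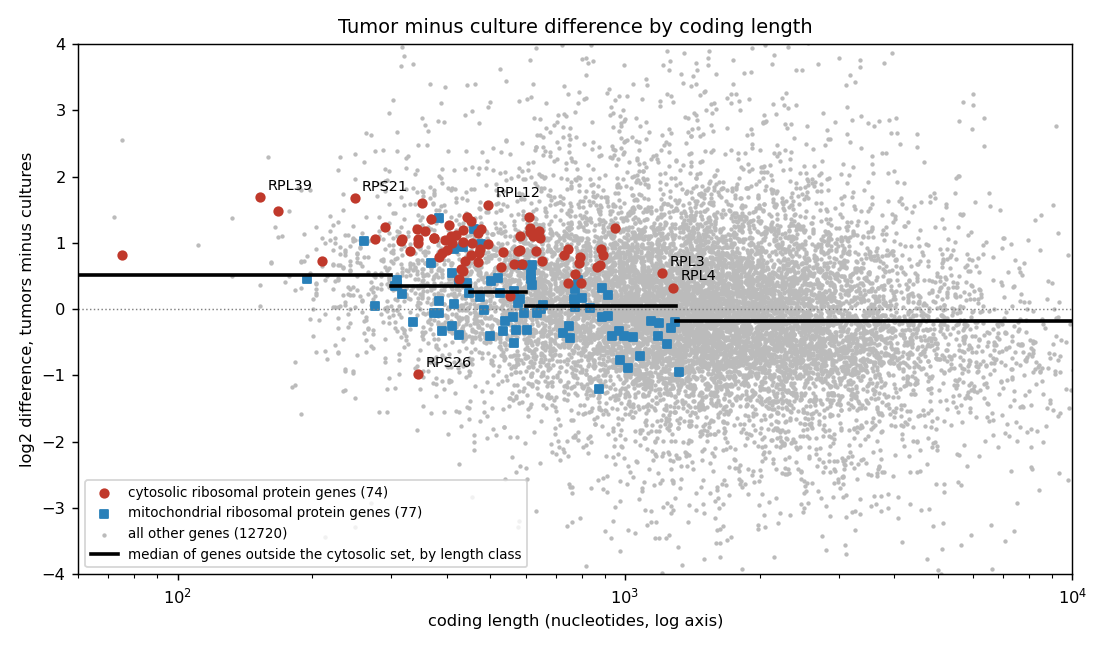
Log2 difference of tumors minus cultures against coding length on a log axis for the 74 members (red circles), 77 mitochondrial ribosomal protein genes (blue squares) and all other genes with a length inside the axes (grey), with medians of genes outside the cytosolic set by length class as black bars. The bars run downward from 0.51 to -0.18, and all members but RPS26 and RPL17 lie above the bar of their class.

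Markers of other cells also differed between the libraries. The 4 A549 epithelial markers summed to 7395 scaled counts in the acinar tumor and 7399 in the solid tumor. The sum was 4336 in the mix culture and 4208 in the single culture. Most of it was KRT8 and KRT18, and the presence of the labelled cell type in each library rests mainly on these genes. EPCAM had 28.1 in the acinar tumor and 20.3 in the solid tumor, against 2.09 in the mix culture and 2.31 in the single culture. CDH1 did not separate tumors from cultures. Its single culture value lay between those of the tumors, and its log2 ratio in mix over single was -0.74. Leukocyte markers (PTPRC, CD14, CD68, LYZ) summed to 140.9 in the acinar tumor, 235.2 in the solid tumor, 42.7 in the mix culture and 48.7 in the single culture, most of it CD68. PTPRC, their defining surface marker, was at most 1.40. CD14 went the other way, with 2.64 in the acinar tumor and 9.65 in the solid tumor, against 13.4 in the mix culture and 15.4 in the single culture. The 10 fibroblast markers summed to 96.1 in the acinar tumor, 59.9 in the solid tumor, 45.8 in the mix culture and 42.6 in the single culture. LUM and COL1A1 made up most of it in the tumors, COL1A2 and DCN were at most 0.280 in any library, and POSTN was at 0 in all. ACTA2 and THY1 were higher in the cultures. ACTA2 had 7.27 in the acinar tumor and 5.80 in the solid tumor, against 13.3 in the mix culture and 21.4 in the single culture. THY1 was at 0 in both tumors, at 2.01 in the mix culture and at 1.33 in the single culture. The 4 endothelial markers summed to at most 1.54. The rows are human genes, and the tumors grew in mice. Low sums therefore do not show how much mouse tissue a tumor library held, and the treatment of mouse reads is not given. Fewer cells of a type and less RNA per cell cannot be told apart in such bulk libraries. The part of other cells, human or mouse, in the members' differences was not tested.

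Some genes outside the naming rule also encode parts of the ribosome. FAU, which encodes a ribosomal protein fused to a ubiquitin-like protein, had log2 ratios of -0.24 in acinar over solid, 0.04 in mix over single and 1.26 in tumors over cultures. GNB2L1, the small subunit scaffold now called RACK1, was at -0.36, 0.17 and 0.60 in the same order of comparisons. FAU had 565.0 scaled counts in the acinar tumor and 666.1 in the solid tumor, against 258.6 in the mix culture and 251.2 in the single culture.

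The paralogs of the members were mixed in direction. Of 5 measured paralogs, 3 were below 0 in acinar over solid, against 49.2% of all genes. In mix over single 4 were above 0, against 52%, and in tumors over cultures 2 were above 0, against 50.9%. RPL3L and RPL10L, tissue-restricted copies, were listed at 0 in every library. RPL7L1 had 4.03 scaled counts in the acinar tumor and 5.45 in the solid tumor, against 18.6 in the mix culture and 15.8 in the single culture, a log2 difference of -1.67. In tumors over cultures RPL22L1 was at -0.29 and RPL26L1 at -0.33, while RPL22 and RPL26 were at 0.79 and 1.01. RPL39L was at 0.36 beside 1.69 for RPL39. RPL39L had 21.7 scaled counts in the acinar tumor and 22.1 in the solid tumor, against 19.7 in the mix culture and 14.4 in the single culture. RPS27L, a target of p53, was at 0.50, with 204.7 scaled counts in the acinar tumor and 181.1 in the solid tumor, against 124.6 in the mix culture and 147.6 in the single culture. In acinar over solid, RPL7L1, RPL22L1 and RPL39L were at -0.36, -0.21 and -0.02, and RPL26L1 and RPS27L were at 0.30 and 0.18. In mix over single RPL7L1 was at 0.22, RPL22L1, RPL26L1 and RPL39L were at 0.49, 0.46 and 0.43, and RPS27L was at -0.24.

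Other translation genes whose mRNAs belong to the TOP class were lower in the acinar tumor too. All 18 had log2 ratios below 0 in acinar over solid, with a median of -0.31, against 49.2% of all genes below 0, and 8 were at least 20% lower, against 18.3%. In mix over single 16 were above 0, against 52%, with a median of 0.14. In tumors over cultures 15 were above 0, against 50.9%, with a median of 0.34. The highest in tumors over cultures were TPT1, an abundant growth-linked protein, at 1.80 and EEF1D, an elongation factor subunit, at 1.22. The lowest were NAP1L1 at -0.36 and EIF3E at -0.13. EEF2, which moves the ribosome along the mRNA, was at 0.04, with 1529 scaled counts in the acinar tumor and 2182 in the solid tumor, against 1797 in the mix culture and 1755 in the single culture.

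Host genes of small nucleolar RNAs, many of them TOP transcripts that are not translated into stable proteins, had a higher median than the members in tumors over cultures, 1.33 beside 0.94. All 11 were above 0, against 50.9% of all genes, and 10 were at least 25% higher, against 34.6%. ZFAS1 was at 2.0 and GAS5 at 1.91, and the lowest were SNHG3 at 0.13 and SNHG15 at 0.52. GAS5 had 96.7 scaled counts in the acinar tumor and 156.3 in the solid tumor, against 33.9 in the mix culture and 30.3 in the single culture. In acinar over solid 9 of 11 were below 0, against 49.2% of all genes, with a median of -0.20.

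The machinery that builds ribosomes went the other way between settings. Of 36 ribosome biogenesis genes 32 were below 0 in tumors over cultures, against 49.1% of all genes, and 27 were at least 20% lower, against 33%, with a median of -0.66. BOP1, of the rRNA processing complex with PES1 and WDR12, was at -1.83 and NCL, the nucleolar protein nucleolin, at -1.44. BOP1 is a low row, with 1.71 scaled counts in the acinar tumor and 3.08 in the solid tumor. It had 13.2 in the mix culture and 8.80 in the single culture. PES1 and WDR12 were at -0.61 and -1.30. The highest of the list were SBDS and EIF6, which act on the last step of large subunit release, at 0.96 and 0.89. BOP1 and NCL have coding lengths of 2238 and 2130 nucleotides, and SBDS and EIF6 of 750 and 735. Beyond 1300 nucleotides the median of other genes was -0.18. The part that length has in this list's difference was not tested. In mix over single 35 of the 36 were above 0, against 52% of all genes, and 22 were at least 25% higher, against 12.9%, with a median of 0.35. NCL had 914.1 scaled counts in the mix culture and 673.1 in the single culture. In acinar over solid the list was near 0, with a median of -0.04.

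RNA polymerase I genes, which transcribe the rRNA, had medians of -0.45 in tumors over cultures, -0.11 in acinar over solid and 0.18 in mix over single, over 14 genes. POLR1A, its catalytic subunit, was at -2.64 in tumors over cultures, the lowest of the list. Initiation factors outside the TOP class had medians of -0.27, 0.02 and 0.15 over 24 genes, with EIF3A at -1.61 and EIF1 at 1.19 in tumors over cultures. Coding length was 5160 nucleotides for POLR1A, 4146 for EIF3A and 339 for EIF1, and its part in these lists was not tested.

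Mitochondrial ribosomal protein genes had a median of 0.06 in acinar over solid, with 49 of 77 above 0, against 50.8% of all genes. None was at least 20% lower there, against 18.3% of all genes. In mix over single their median was 0.16, beside 0.15 for the cytosolic members and 0.01 for all genes. There 66 of 77 were above 0, against 52% of all genes. In tumors over cultures the median was 0.04, beside 0.02 for all genes. There 22 of 77 were at least 25% higher, against 34.6% of all genes, and 18 were at least 20% lower, against 33%, both smaller shares than over all genes. MRPL55 and MRPL23 were highest there, at 1.37 and 1.20, and MRPL19 and MRPS30 lowest, at -1.21 and -0.95.

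**Figure D5:**
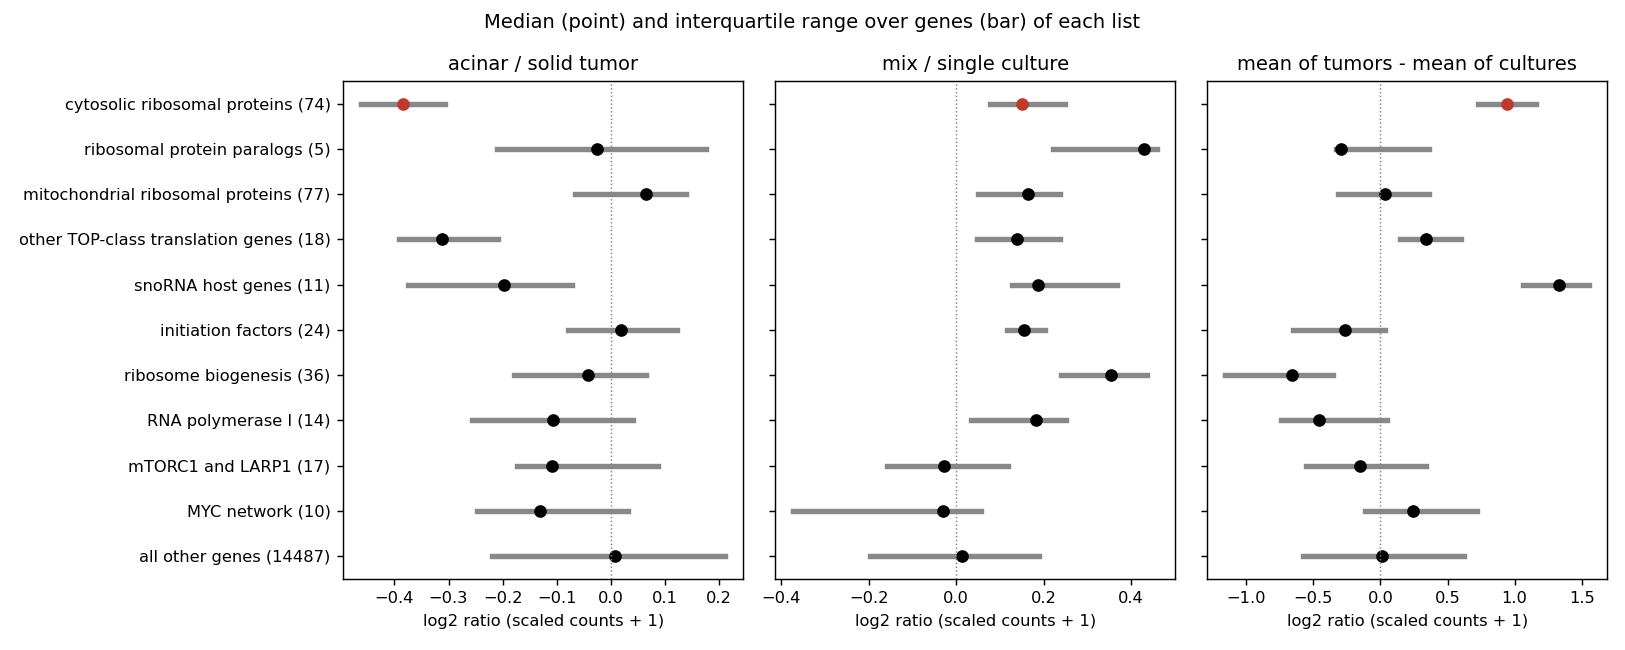
Median log2 ratio (point) and interquartile range over genes (bar) for the members (red) and 9 related gene lists, with all other genes at the bottom, in acinar over solid tumor, mix over single culture, and tumors minus cultures. The cytosolic members lie at -0.38, 0.15 and 0.94, and ribosome biogenesis genes at -0.04, 0.35 and -0.66.

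Listed regulators of the members' transcription and translation showed no shared direction. Both lists hold activators and inhibitors, so their medians do not show whether the activity of a pathway differed. The 17 genes of mTORC1 and its partners had medians of -0.11 in acinar over solid, -0.03 in mix over single and -0.15 in tumors over cultures. LARP1, which binds TOP tracts, had 251.2 scaled counts in the acinar tumor and 250.5 in the solid tumor, against 391.5 in the mix culture and 353.1 in the single culture. DDIT4, an inhibitor of mTORC1, stood at 349.0 in the acinar tumor and 708.0 in the solid tumor, a log2 ratio of -1.02, and at 611.7 in the mix culture and 685.7 in the single culture. MYC, a known activator of ribosomal protein genes, had 49.5 in the acinar tumor and 56.8 in the solid tumor, against 73.5 in the mix culture and 59.8 in the single culture. The median of the 10 measured MYC network genes was -0.13 in acinar over solid and 0.24 in tumors over cultures.

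Most genes that link free ribosomal proteins to p53 had the opposite sign to the members in both pairs. MDM2, which RPL5 and RPL11 can bind, had 115.4 scaled counts in the acinar tumor and 95.7 in the solid tumor, and 77.9 in the mix culture and 106.7 in the single culture. CDKN1A, the p53 target that halts the cell cycle, had 223.1 in the acinar tumor and 143.3 in the solid tumor, and 124.6 in the mix culture and 254.1 in the single culture. Of the 5 measured genes 4 were above 0 in acinar over solid, against 50.8% of all genes. In mix over single 4 were below 0, against 6474 of 13485 genes. The exception in both was GLTSCR2, a nucleolar protein, at -0.27 and 0.13. The list is short and was set beside the members without a test.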

How the data were processed

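RNA was sequenced from 4 samples with a TruSeq RNA kit, per the labels. Per the submitters' processing notes the build was hg19 and the tools were Cuffdiff 2.2.1, SAMtools 1.0, Bowtie2 2.2.3 and TopHat2 2.0.13, without roles; the sources used here do not give the annotation, the strand setting or the treatment of mouse or multiply matching reads. The authors deposited a table with a signal per gene and library, called raw signal per the file headers. Above 0, 90.0% to 91.2% of a library's values were within 0.05 of a whole multiple of its constant step, taken as 1 fragment. The step was 1.39 in the acinar tumor, 1.25 in the solid tumor, 0.720 in the mix culture and 0.795 in the single culture. The summed signal was close between libraries, from 8.71e+06 in the single culture to 9.20e+06 in the acinar tumor. Despite the header, the signal was therefore read as already scaled for depth. No count model was fitted, since each group has 1 library. In addition, 10 members had a fractional value.

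Scaled counts are the deposited signal divided by 8.94, the same constant in all libraries. Tumors against cultures is the mean log2 of 2 tumors minus that of 2 cultures, called only where both tumors lie beyond both cultures. Ratios and intervals were computed with Python 3 tools (pandas, scipy) and tested on simulated data. Gene sequences came from GENCODE 29 (GRCh38) and copies from blastn; starts came from RefSeq. Symbols were matched by name. Members and lists were chosen with earlier results of these data known. Named members are the 5 highest and 5 lowest ratios of each comparison, unmeasured members and fixed key members; some of these are not reported here. Alternatives changed pseudocount, filter, scaling, genes and libraries.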

Additional observations from a re-analysis of the deposited data

How the results depend on the processing

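No paired analysis was possible because each group has 1 library. No alternative turned the direction of a member median or of a named member or list past the 25% or 20% limit. The acinar over solid median lay between -0.43 and -0.38, with 53 to 59 of 74 members at least 20% lower where all 74 were tested, and 48 of 65 over whole-fragment genes alone. Dividing each library by its upper quartile gave 12 members below 0 in mix over single, against 7, and 5 at least 25% higher, against 8; the cause was not tested. In tumors over cultures, leaving out 1 library gave medians of 0.78, without the solid tumor, to 1.14, without the acinar tumor. Without a filter 3 members were below 0, and with a filter of 5 scaled counts 0 were below 0 and 0 were at least 20% lower, because RPS26 was no longer tested. Over whole-fragment genes alone the members' share was 4.59% in the acinar tumor, 6.11% in the solid tumor and 3.05% in the mix culture. Over rows at 1 scaled count or more in every library it was 4.71% in the acinar tumor, 6.27% in the solid tumor, 3.08% in the mix culture and 2.77% in the single culture. The largest shift of the all-gene median under an alternative was -0.06 log2. Depth limits the rows with few fragments, RPL9, RPL36A, RPS26, RPS27 and RPS28, and BOP1 outside the members.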
